A study of Mus musculus with 33 samples.

Results

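A small set of Oct4 binding sites was called both in wild-type (WT) mouse embryonic stem cells and in cells without Uhrf1. These kept sites are WT Oct4 summits, the positions of highest read pileup in a ChIP-seq peak, that had an Oct4 summit of the Uhrf1 knockout (KO) within 100 bp. They numbered 244 of 12898 WT Oct4 summits, or 1.89% of the WT list (Wilson 95% interval 1.67 to 2.14), and each had its own summit among the 576 of the KO list. The remaining 12654 WT summits are called WT-specific below, and the other 332 KO summits KO-specific. The members were chosen by the measured Oct4 summit positions of both lists, so Oct4 heights and distances are given as a description with no test.

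The cells were undifferentiated E14 mESC of the WT and Uhrf1 KO genotypes, 1 line of each, both from the same source and grown in serum with leukemia inhibitory factor on gelatin or MEF-coated plates. Formaldehyde-fixed chromatin was precipitated with antibodies to Oct4, Sox2, Nanog, H3K4me3, H3K27me3 and H3K9me3 in both genotypes and to Uhrf1 in WT cells, and H3K4me3 and H3K27me3 were also mapped in embryoid bodies (EBs) of both genotypes at weeks 1, 2 and 3. In all there were 33 samples, 17 of WT and 16 of KO cells, and 25 deposited lists of sites or regions. Every group held 1 sample. No comparison between genotypes could be tested, and 95% intervals cover counting error over sites only. Library depth was not used here, so a summit height in reads is comparable between sites of 1 list but not directly between genotypes. The lists carry no expression values, so the labelled cell type was not checked against marker genes.

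Oct4, encoded by Pou5f1, is a POU-domain transcription factor that pluripotent cells require. It often binds next to Sox2 at a composite motif in which a Sox half-site lies beside an octamer, and Nanog is frequently found at the same enhancers. Uhrf1 brings the maintenance DNA methyltransferase to newly replicated DNA and recognizes histone H3. H3K4me3 marks active and poised promoters, H3K27me3 is laid down by Polycomb, and H3K9me3 marks heterochromatin and silenced repeats.

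Sequences of some kept sites are given as examples, and the features marked in them also occur at WT-specific sites. The first set shows the closest composite matches, chosen after the values were seen, of 1 site nearest Six4 and 4 sites nearest genes of a pluripotency list. The WT summit base and the 50 bases on each side are given 5′ to 3′ (mm9, strand as named), and capitals mark the best match to the composite, CATTGT and ATGCAAAT with 1 base between them. Among the 14 letters compared, the Six4 site had 1 mismatch and the Pou5f1, Sall1, Upp1 and Jam2 sites had 3 each. These 4 were the closest matches among 11 kept sites nearest to pluripotency genes, of which a further 4 had 4 mismatches and 3 had 6.
Six4 site, chr12:74187016-74187116, plus strand: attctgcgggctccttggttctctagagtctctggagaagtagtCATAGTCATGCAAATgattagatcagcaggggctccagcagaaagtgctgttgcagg
Pou5f1 site, chr17:35640946-35641046, minus strand: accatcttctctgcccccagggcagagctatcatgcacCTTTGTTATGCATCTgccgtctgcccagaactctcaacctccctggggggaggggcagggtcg
Sall1 site, chr8:91527607-91527707, minus strand: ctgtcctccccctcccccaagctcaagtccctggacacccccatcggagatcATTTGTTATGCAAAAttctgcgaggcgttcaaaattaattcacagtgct
Upp1 site, chr11:9017084-9017184, minus strand: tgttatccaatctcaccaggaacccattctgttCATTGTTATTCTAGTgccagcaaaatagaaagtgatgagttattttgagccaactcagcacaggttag
Jam2 site, chr16:84769536-84769636, plus strand: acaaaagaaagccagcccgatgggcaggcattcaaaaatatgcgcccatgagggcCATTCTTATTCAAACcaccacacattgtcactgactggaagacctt

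The second set is shown because these members share sequence with each other although they lie at different places. Capitals mark a run of 20 bases that members of a family had in common, first for 3 of the 6 sites with this run in the largest family of 11, then for 2 sites of a family on chromosome 4, then for 2 sites that share their run with the Jam2 site above. In the Jam2 family the shared run covers the composite match of the Jam2 site.
B230359F08Rik site, chr14:54196772-54196872, plus strand: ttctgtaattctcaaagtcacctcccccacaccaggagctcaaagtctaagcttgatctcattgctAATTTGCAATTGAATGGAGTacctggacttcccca
Serpini1 site, chr3:75455819-75455919, minus strand: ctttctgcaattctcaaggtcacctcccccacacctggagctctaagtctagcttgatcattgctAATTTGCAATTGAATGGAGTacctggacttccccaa
Tmprss12 site, chr15:100104363-100104463, plus strand: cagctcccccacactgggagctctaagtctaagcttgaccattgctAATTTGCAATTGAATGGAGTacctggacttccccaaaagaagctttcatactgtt
Zfp600 site, chr4:146128656-146128756, minus strand: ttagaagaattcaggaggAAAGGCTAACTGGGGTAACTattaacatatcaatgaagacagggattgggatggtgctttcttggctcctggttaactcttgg
Gm13212 site, chr4:145265537-145265637, minus strand: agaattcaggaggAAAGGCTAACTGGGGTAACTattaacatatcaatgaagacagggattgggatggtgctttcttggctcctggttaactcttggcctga
Dmrt1 site, chr19:25553779-25553879, minus strand: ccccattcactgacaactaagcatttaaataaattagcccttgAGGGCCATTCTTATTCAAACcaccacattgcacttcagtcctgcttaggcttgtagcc
Sash1 site, chr10:8609415-8609515, minus strand: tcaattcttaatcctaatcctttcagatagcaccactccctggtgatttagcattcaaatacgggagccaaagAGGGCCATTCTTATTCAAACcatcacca

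The heights of kept sites varied widely within each list, and so did the ratio of KO to WT height. The WT height ran from 20 to 168 reads with a median of 97.5, and the KO height from 12 to 100 with a median of 26. The ratio of KO to WT height had a median of 0.245 and ran from 0.0985 to 1.42. In 168 members the KO height was less than 50% of the WT height, and in 5 it was equal or higher. Among the tallest WT Oct4 sites the kept share was larger. In the tallest 10% of the WT list, with heights from 76 to 168 reads, 184 of 1290 sites were kept, or 14.3%. In the lowest 10%, with 11 to 21 reads, 2 of 1290 were kept, or 0.155%. Height did not settle membership even at the top, since 44 of the 100 tallest WT sites were kept.

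**Figure D1:**
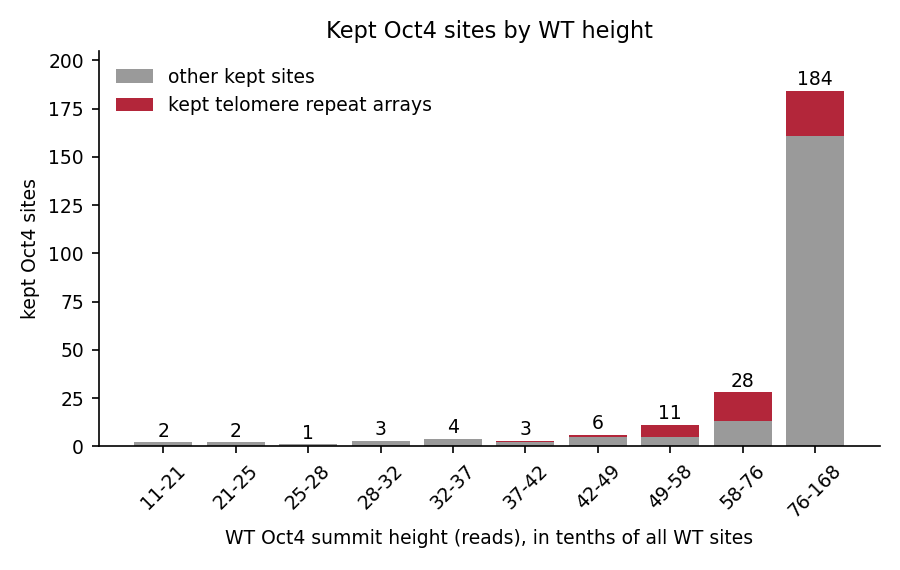
Number of kept Oct4 sites (vertical axis) in 10 equal groups of all WT Oct4 sites ordered by WT summit height in reads (horizontal axis), with members on telomere repeat arrays in red and all others in grey. The tallest 10% hold 184 of the 244 members.

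The KO summit lay close to the WT summit for most members. The distance was 0 bp for 11 members, at most 10 bp for 100 and at most 50 bp for 218, with a median of 15 bp. Just inside the limit were a site on chromosome 1_random at 96 bp (87 reads in WT, 71 in KO), a site nearest Sox9 at 94 bp (144 and 30 reads) and one in an intron of Tead1 at 94 bp (110 and 18 reads). Just outside were a site on chromosome 8_random at 102 bp (27 and 20 reads), a site nearest Gm15319 at 102 bp (39 and 19 reads) and a site nearest Axin2 at 105 bp (143 and 71 reads). Of the sites just outside, the Axin2 one was as tall in WT as those just inside, and the other 2 were lower. In all, 63 WT sites had a KO summit past the limit but within 1000 bp.

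Members were found on all 19 autosomes, with 6 to 19 on each and 230 together. A further 4 lay on X or Y, and 10 on sequence that mm9 does not place on a chromosome. The histone and Uhrf1 lists and the gene models used here cover placed chromosomes, so these measures refer to 234 members and 12697 WT sites.

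The kept sites on telomere repeats had higher KO to WT height ratios than most other members, with depth not scaled. The telomere sites were grouped after their values were seen, and nothing is tested on them. They are sites with 4 or more TTAGGG units on 1 strand within 50 bp of the summit. There were 68 such arrays among all placed WT Oct4 sites, 0.536% of them, and 46 of the 68 were kept. The 46 arrays made up 18.9% of the members and lay on 18 chromosomes, with 2 of them within 1 Mb of an end of the assembled sequence. Their median height was 75 reads in WT and 65.5 in KO, and the KO to WT ratio ran from 0.527 to 1.05 with a median of 0.871. The summits of the genotypes coincided within a median of 2 bp and at most 25 bp.

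Of the 10 tallest KO heights outside the crowded places described further on, 9 were telomere arrays. The array nearest Gm17379 on X had 168 reads in WT and 100 in KO, and the array nearest Gm3395 on Y had 110 and 99. The arrays nearest Gm6404 (96 and 93 reads), Rps2-ps5 (100 and 91) and Tnks (96 and 90) had close read counts in both lists, not scaled for depth. So did that nearest Morc3, in an intron of Dopey2, with 95 reads in KO and a ratio of 0.941. The remaining site was no array and lay nearest Ly6c2 on chromosome 15, with 167 reads in WT and 99 in KO. That site also had Sox2 summits of 577 reads in WT and 513 in KO.

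Arrays also held 3 of the 5 members with the highest KO to WT ratio. They lay in introns of Rims1 (38 and 40 reads) and Bard1 (53 and 54) and nearest Plcxd1 (65 and 66). The other 2 were no arrays, nearest Scaf8 (24 and 34 reads) and Gm9880 (31 and 35). In these 5 members the KO height exceeded the WT height, by 1 to 10 reads.

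The 31 bases at the summit of an array member occurred at a median of 1355 places in mm9. Since 1 alignment was kept for each read, which array a read came from cannot be told apart. The 22 WT-specific arrays reached similar heights (26 to 159 reads, median 64), and 1 of them had a KO summit within 1000 bp. In the KO list 55 summits lay on arrays, 46 of them kept and 9 KO-specific.

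**Figure D2:**
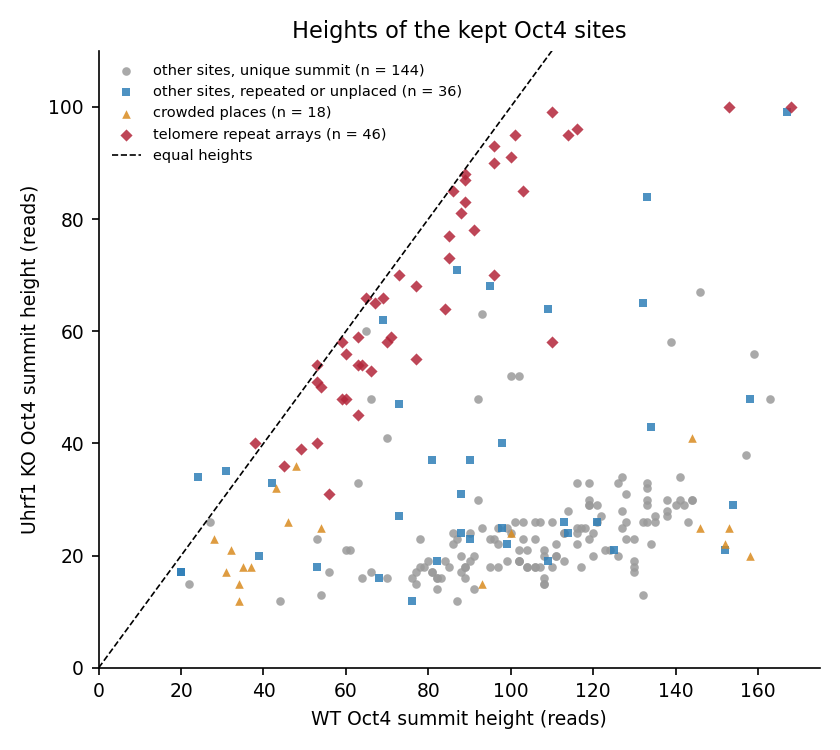
WT (horizontal axis) and Uhrf1 KO (vertical axis) Oct4 summit height in reads for each of the 244 kept sites, coloured by kind. The dashed line marks equal heights, not scaled for depth. Telomere repeat arrays (red) lie close to the line, while most sites with a unique summit sequence (grey) lie far below it.

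Outside the arrays, 198 members remained, 1.54% of the 12830 WT sites that are no arrays. Their median height was 102.5 reads in WT and 23 in KO, and the median ratio was 0.227. A cut at a ratio of 0.35, set after the values were seen, left 153 members below it and 45 at or above it. Of the 153, 131 had a summit sequence found once in mm9, and their KO heights ran from 12 to 48 reads. Of the 45, 16 had a unique summit sequence, 19 a repeated one and 10 lay on unplaced sequence. Among all placed WT Oct4 sites, 36.3% had a repeated summit sequence. A composite match with at most 3 mismatches was present in 69 of the 153, and in 6 of the 35 placed members among the 45.

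Pluripotency genes were among the nearest genes of the members with a low ratio. Of 66 genes of a pluripotency network list that the annotation holds, 10 had a kept site as a nearest start, with 11 kept sites, 4.70% of the placed members. For WT-specific sites, 61 of the 66 genes had 255 sites, 2.05% of the placed sites. None of 8 genes of a list of 2-cell stage genes had a kept site, and 2 had 3 WT-specific sites. Of 46 lineage genes, 1 had 1 kept site, 0.427% of the placed members, and 30 had 74 WT-specific sites, 0.594%. These counts describe the lists and were not tested.

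At Pou5f1 itself the kept site lay 1986 bp upstream of the start, where the distal enhancer of this gene is known, and had 157 reads in WT and 38 in KO. Sox2 had 2 kept sites downstream of its start, at 18613 bp (90 and 24 reads) and at 106908 bp (81 and 17 reads). Esrrb, an orphan nuclear receptor of the naive state, had a kept site in an intron with 119 reads in WT and 29 in KO. Prdm14, a repressor of differentiation genes, had one with 107 and 18 reads. In each of these 5 sites the KO height was a small part of the WT height.

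Lefty1, an inhibitor of Nodal signalling, had a kept site 10105 bp upstream with 127 reads in WT and 28 in KO. Lifr, the receptor for leukemia inhibitory factor, had one with 89 and 18 reads. Sall1, a zinc-finger transcription factor, had one with 144 and 30 reads. Phc1, a Polycomb protein, had one 1748 bp upstream with 121 and 26 reads. The site at Upp1, a uridine phosphorylase, had 141 and 30 reads, and that at Jam2, a junction adhesion protein, 113 and 24. Neurog1, a proneural transcription factor and the only lineage gene, had a kept site 173 bp upstream with 99 and 25 reads.

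These 12 sites were alike in height ratio and in summit sequence. Their KO to WT height ratios ran from 0.168 to 0.267, and all 12 had a summit sequence found once in mm9. The 148 kept sites with such a sequence had similar ratios, with a median of 0.215 and quartiles of 0.192 and 0.252. A WT H3K4me3 domain lay over 11 of them, all but the Neurog1 site, and a KO domain over 9. Those shares were 38.6% and 30.3% of all placed WT Oct4 sites, and 67.6% and 56.1% of the kept sites with a unique summit sequence. None lay in a Uhrf1 window, as did 1.35% of WT-specific sites with a unique summit sequence. None lay in a KO H3K27me3 domain, against 4.39% of all placed WT sites. A WT H3K27me3 domain lay over 2, those at Upp1 and Neurog1, against 31.4%. A KO H3K9me3 domain lay over 10 and a WT one over 5, against 54% and 42.2%. Within 100 bp there was a Sox2 summit at 10 of them in each genotype, and a Nanog summit at 9 in WT and 10 in KO.

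A kept site was not always the tallest of its gene. Sox2 was nearest to 16 WT Oct4 sites and Lefty1 to 3, and at both the tallest had 134 reads and was WT-specific. Pou5f1 was nearest to 3 WT sites, Esrrb and Prdm14 to 6 each and Sall1 to 12, and at these genes the kept site was the tallest. The tallest WT-specific site was at 95 reads for Pou5f1, 99 for Esrrb, 78 for Prdm14 and 97 for Sall1.

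Few members lay at promoters. Within 2 kb of a protein-coding start there were 15 of 234 members, or 6.41% (3.92 to 10.3), against 9.17% of all placed WT Oct4 sites. The difference from WT-specific sites was -2.81 percentage points, with a Newcombe 95% interval of -5.35 to 1.12 that includes 0. More than 10 kb from any start were 185 members, or 79.1%, against 76.5% of WT-specific sites. Introns held 81 members, or 34.6%, against 32.4% of all placed WT sites. Outside genes lay 150 members, or 64.1%, against 64.1% of WT-specific sites. The tallest promoter members beside Pou5f1 and Upp1 were in introns of Gm13235 (152 reads in WT, 21 in KO) and of the tumour suppressor gene Trp53 (141 and 34). Next came Urm1, whose product modifies tRNA (134 and 22 reads), and Acp6, a lysophosphatidic acid phosphatase, where the summit was in a coding exon (130 and 18). Phc1 was followed by the stress-response gene Gadd45g (120 and 24 reads), Rbm14, an RNA-binding protein (119 and 33), and Dido1 (116 and 25).

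Kept Oct4 sites carried Sox2 and Nanog far more often than other Oct4 sites. A WT Sox2 summit lay within 100 bp of 206 of 244 members, or 84.4% (79.3 to 88.4), against 24.2% of all WT Oct4 sites. Members exceeded WT-specific sites by 61.4 points (56.3 to 65.5). A WT Nanog summit lay near 177 members, or 72.5% (66.6 to 77.8), against 12.9% of all WT Oct4 sites, a difference of 60.8 points (54.8 to 66.0) from WT-specific sites. In KO cells the lists are longer, with 20755 Sox2 and 10632 Nanog summits against 5190 and 2390 in WT. A KO Sox2 summit lay near 214 members, or 87.7%, against 46% of all WT Oct4 sites, a difference of 42.5 points (37.7 to 46.2). A KO Nanog summit also lay near 214 members, against 32.4% of all WT Oct4 sites, a difference of 56.4 points (51.6 to 60.0).

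Part of these differences went with height. When both classes were limited to the tallest 20% of WT Oct4 heights, 58 reads or more, 212 members and 2472 WT-specific sites remained. The difference was then 33.3 points for WT Sox2 (28.2 to 37.2), 11.6 for KO Sox2 (6.73 to 15.1), 44.9 for WT Nanog (38.6 to 50.2) and 27.9 for KO Nanog (23.2 to 31.3). All 4 intervals still excluded 0. The classes were not matched in height even there, with a median of 102.5 reads for the members and 73 for the WT-specific sites. Without the telomere arrays the differences were 58.9, 40.2, 57.5 and 53.7 points in the same order.

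Summits of all 4 lists, Sox2 and Nanog in WT and KO, lay within 100 bp of 149 members, or 61.1%, against 8.05% of all WT Oct4 sites. Among the arrays this was 39 of 46, and among the other members 110 of 198. No Sox2 or Nanog summit of any list lay near 7 members, against 44.8% of all WT Oct4 sites. None of these 7 was an array. Among the named sites, the 106908 bp site of Sox2 and the Phc1 site had Nanog but no Sox2 summit in either genotype, and the Neurog1 and Acp6 sites had Sox2 but no Nanog summit in either.

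At the 153 members with a low Oct4 ratio, KO heights of Sox2 and Nanog were mostly above the WT ones. Where both lists held a Sox2 summit, the KO Sox2 height was above the WT height at 124 of 130 of these members, with a median KO to WT ratio of 1.77. For Nanog it was above at 92 of 107, with a median ratio of 1.44. At WT-specific sites the KO height was also mostly above the WT one, at 1907 of 2384 for Sox2 and 819 of 1304 for Nanog. The ratios there had medians of 1.46 for Sox2 and 1.19 for Nanog. At the Pou5f1 site, for example, Sox2 had 103 reads in WT and 191 in KO, and Nanog 56 and 80. At the Esrrb site Sox2 had 53 and 139 reads, and at the Jam2 site 82 and 194. At the Lefty1 site Sox2 had 125 and 181 reads and Nanog 54 and 98, and at the Upp1 site Sox2 had 104 and 170 reads and Nanog 47 and 76. The Sall1 site had similar Sox2 heights of 124 and 134 reads, with a Nanog summit of 60 reads in KO and no Nanog summit in WT within 100 bp.

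At the other members the ratios were lower. At arrays the median KO to WT ratio was 1.14 for Sox2 and 0.892 for Nanog. At the 45 other members with an Oct4 ratio of 0.35 or more it was 0.824 for Sox2 over 24 sites and 0.600 for Nanog over 19. Depth differs between libraries and was not scaled here, so a ratio on 1 side of 1 is no change in binding by itself. The same pair of libraries stands behind each ratio, and the differences between classes of sites were not tested.

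H3K4me3 domains covered members more often than other Oct4 sites, a difference not seen among tall sites with arrays included. A WT H3K4me3 domain lay over 118 of 234 members, or 50.4% (44.1 to 56.8), against 38.6% of all placed WT Oct4 sites, 12.1 points above WT-specific sites (5.68 to 18.5). A KO domain lay over 103 members, or 44.0%, against 30.3% of all placed WT sites, 14 points above (7.74 to 20.5). Within the tallest 20% of heights the differences were -1.12 points in WT (-8.17 to 5.78) and 3.97 in KO (-2.98 to 11), and both intervals included 0. Tall members still included arrays, and no tall comparison without arrays was made. In WT, 8 of 46 arrays and 110 of the 188 other placed members lay in such a domain. Of the 118 members, 94 also lay in a KO domain, or 79.7%, against 71.9% of the WT-specific sites in a WT domain. Without arrays the WT difference from WT-specific sites was 20.2 points (13 to 27), and with domains above the median score it was 5.69 points (-0.0666 to 12), an interval that includes 0.

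H3K27me3 domains in WT covered 83 members, or 35.5%, against 31.4% of all placed WT sites, with a difference of 4.17 points (-1.74 to 10.5). In KO they covered 13 members, or 5.56%, against 4.39%, with a difference of 1.18 points (-1.13 to 4.91). Of the 83 members, 10 lay in a KO domain as well. The intervals of both differences included 0. In WT, 27 of 46 arrays and 56 of the 188 others lay in a domain. Without arrays the WT difference turned to -1.46 points (-7.6 to 5.47).

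H3K9me3 domains covered 93 members in WT, or 39.7%, against 42.2% of all placed WT sites, and 138 in KO, or 59.0%, against 54%. The differences from WT-specific sites were -2.55 points (-8.67 to 3.90) and 5.02 points (-1.43 to 11.2). The WT share differed between kinds of members, as 29 of 46 arrays and 64 of the 188 others lay in a domain. Without arrays the WT difference was -8.18 points (-14.6 to -1.10). With domains above the median score it was -8.17 points (-13.6 to -2.05), and the KO difference turned to -7.16 (-13.3 to -0.715). Without crowded places the KO difference was 7.34 points (0.748 to 13.5). These domains are long, with a median of 17550 bp for H3K4me3, 145800 bp for H3K27me3 and 77400 bp for H3K9me3 over the members in WT. A summit inside a domain therefore says little about the mark at the summit itself.

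Windows of 10 kb enriched for Uhrf1 covered 24 members, or 10.3% (6.99 to 14.8), against 11.2% of all placed WT Oct4 sites. The difference from WT-specific sites was -0.969 points (-4.28 to 3.61). Within the tallest 20% the direction turned, with 18 of 209 members against 86 of 2463 WT-specific sites, a difference of 5.12 points (1.92 to 9.76). Among sites with a unique summit sequence, 4 of 148 members lay in a window and the difference was 1.35 points (-0.316 to 5.4).

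**Figure D3:**
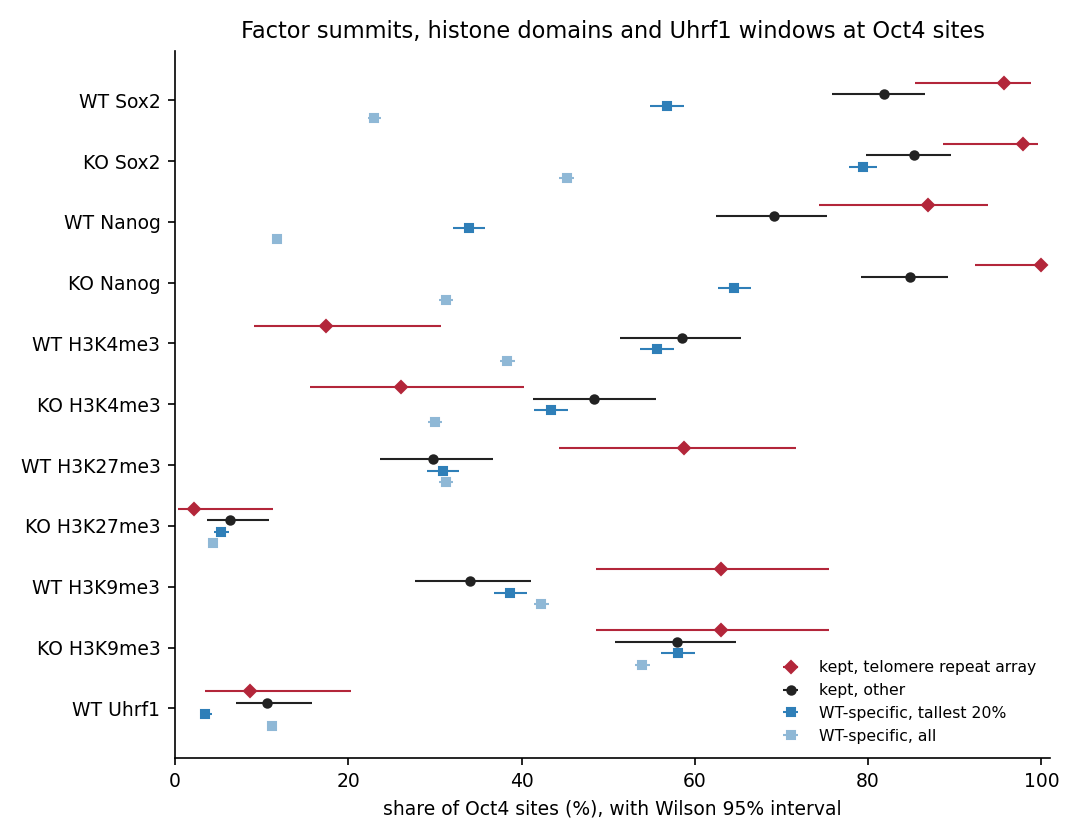
Share of Oct4 sites (horizontal axis, percent, with Wilson 95% intervals) with a Sox2 or Nanog summit within 100 bp, or inside a histone domain or Uhrf1 window (rows), for kept telomere repeat arrays, other kept sites, the tallest 20% of WT-specific sites and all WT-specific sites. WT Sox2 is near 84.4% of all kept sites together, and the WT H3K4me3 shares of the other kept sites and of the tall WT-specific sites overlap.

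In EBs, members lay in H3K4me3 domains more often than all WT Oct4 sites at each week. For WT EBs the counts were 68 at week 1, 129 at week 2 and 147 at week 3 of 234, or 29.1%, 55.1% and 62.8%, against 17.6%, 29.1% and 33.3% of all placed WT sites. For KO EBs they were 67, 155 and 157, or 28.6%, 66.2% and 67.1%, against 11.4%, 34.7% and 37.1%. Among the tallest 20% of WT-specific sites the shares were 19.9%, 38.1% and 48.8% in WT EBs. In KO EBs they were 10.6%, 51.4% and 55.7%. At week 1 the kept arrays differed from the other members, with 35 of 46 inside a KO domain and 17 of 46 inside a WT domain. Of these arrays, 18 lay in a KO domain only and 0 in a WT domain only. Of the 22 WT-specific arrays, 14 lay in a KO domain and 3 in a WT domain. Among the 188 other placed members, 32 lay in a KO domain and 51 in a WT domain at week 1.

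H3K27me3 domains of WT EBs covered 44, 71 and 79 members at weeks 1, 2 and 3, or 18.8%, 30.3% and 33.8%, against 9.18%, 36.9% and 28.4% of all placed WT sites. Those of KO EBs covered 58, 58 and 45 members, or 24.8%, 24.8% and 19.2%, against 10.5%, 18.9% and 16.7%. In KO EBs at week 1, 24 of 46 arrays and 34 of the 188 others lay in such a domain. In WT EBs at week 1 the counts were 6 of 46 arrays and 38 of the 188 others. Of the 22 WT-specific arrays, 9 lay in a KO and 2 in a WT domain at week 1.

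**Figure D4:**
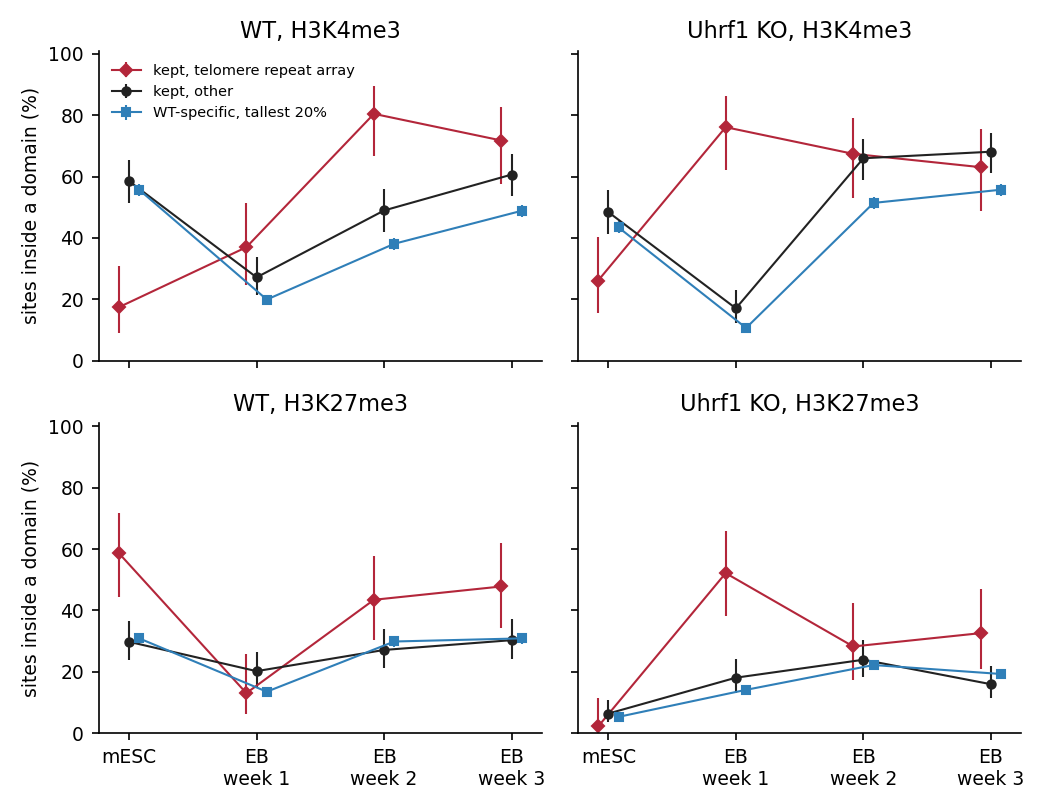
Share of Oct4 sites inside an H3K4me3 (top) or H3K27me3 (bottom) domain (vertical axis, percent, Wilson 95% intervals) in mESC and in EBs at weeks 1, 2 and 3 (horizontal axis), for WT (left) and Uhrf1 KO (right). Kept telomere repeat arrays reach 76.1% for H3K4me3 in KO EBs at week 1, against 17% of the other kept sites.

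With arrays included, the Oct4 motif letters did not set members apart from other tall Oct4 sites beyond the interval of the difference. The octamer ATGCAAAT, searched on both strands within 50 bp of the summit, was present at 21 of 234 members, or 8.97% (5.94 to 13.3), against 8.82% of all placed WT sites. The difference from WT-specific sites was 0.156 points (-2.92 to 4.54), and -3.59 points (-7.26 to 1.4) within the tallest 20% of heights. In windows of the same length 1000 bp to either side it was present at 3 and 4 members. The Trp53, Neurog1, Dido1 and Six4 sites and the 94 bp site nearest Sox9 hold it.

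The composite with at most 2 mismatches, which contains the octamer letters and so overlaps it, was present at 17 members, or 7.26% (4.59 to 11.3), against 4.11% of all placed WT sites. The difference from WT-specific sites was 3.21 points (0.509 to 7.29). Within the tallest 20% it was -0.758 points (-3.98 to 3.87), and in windows 1000 bp away the composite was present at 0 members on either side. With at most 3 mismatches, chosen after seeing the data, it was present at 75 members and the difference was 14.5 points (8.79 to 20.7). Within the tallest 20% this was 2.09 points (-4.3 to 9.01). None of the 46 arrays held a match at that level, and the tall members still included arrays. Tall members outside arrays were not compared. At all heights and without arrays, the difference with at most 2 mismatches was 4.98 points (1.64 to 9.955). For the octamer it was 2.34 points (-1.45 to 7.66).

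**Figure D5:**
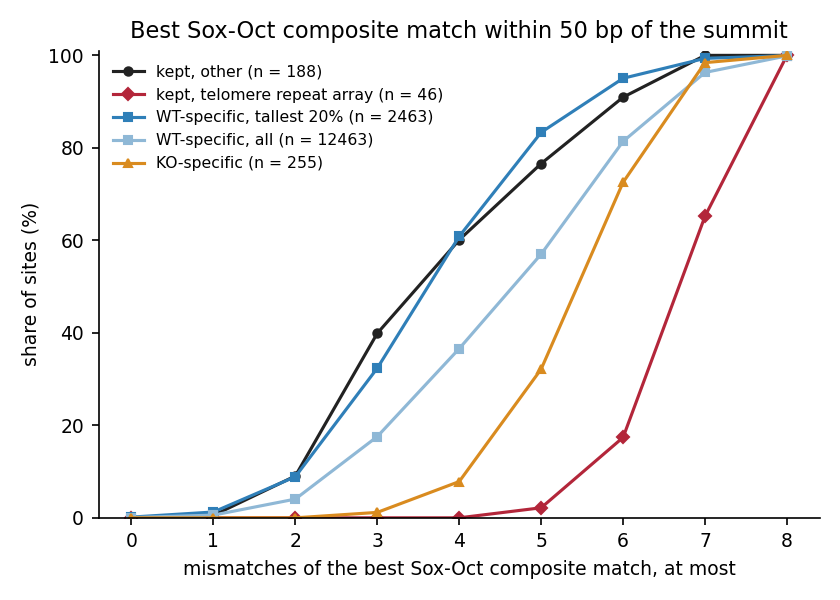
Cumulative share of sites (vertical axis, percent) whose best Sox-Oct composite match within 50 bp of the summit has at most the given number of mismatches (horizontal axis). Kept sites outside arrays reach 39.9% at 3 mismatches and the tallest 20% of WT-specific sites 32.4%, while arrays and KO-specific sites stay below both.

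Members had repeated summit sequences about as often as all placed WT Oct4 sites. The 31 bases at the summit occurred at 2 or more places for 86 of 234 members, or 36.8% (30.8 to 43.1), against 36.3% of all placed WT sites, a difference of 0.437 points (-5.54 to 6.84). Of the 46 kept arrays, 45 had a repeated summit sequence. Without arrays it was 41 of 188 members, and the difference turned to -14.4 points (-19.8 to -7.91). Within the tallest 20%, arrays included, it was 17.4 points (11.3 to 24.2). At 10 or more places there were 50 members, 41 of them arrays.

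Beyond arrays, 35 of the 188 placed members fell into 9 families that shared at least 1 run of 20 bases. The largest held 11 members on 9 chromosomes, with 73 to 116 reads in WT and 18 to 33 in KO. All 11 lay in a WT H3K9me3 domain and 10 in a WT H3K4me3 domain, and 10 had Sox2 and Nanog summits in all 4 lists. Its run shown above occurred at 107 places in mm9 and at 58 WT Oct4 sites, of which 6 were kept. Those 58 sites had 29 to 116 reads in WT, and the ones not kept were WT-specific. Of all WT Oct4 sites, 1.89% were kept.

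The second family held 7 members on chromosome 4 near Gm13212, Gm13235, Zfp600, Gm13138, Gm13151 and Gm13145, with 93 to 158 reads in WT and 15 to 29 in KO. All 7 lay in a Uhrf1 window and had Sox2 and Nanog summits in KO, and none lay in a WT H3K4me3, H3K27me3 or H3K9me3 domain. Its run occurred at 13 places, 11 of them WT Oct4 sites and 7 kept. The Jam2 family had 3 members with 87 to 113 reads in WT and 12 to 24 in KO, and its run occurred at 59 places, 6 of them WT Oct4 sites. Families and copies were grouped after their sequences were seen and are a description.

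Some members lay where KO Oct4 summits crowd together, defined as a 1 Mb bin or an unplaced sequence with 10 or more KO summits. There were 18, with 7 on chromosome 8_random, 6 on chromosome 4 at 146 to 147 Mb, 4 on chromosome 8 at 19 to 21 Mb and 1 on chromosome 6 at 47 to 48 Mb. Their heights were 28 to 158 reads in WT and 12 to 41 in KO. Members on chromosome 8 and 8_random were few beside the 190 KO summits there. KO-specific sites, by contrast, were mostly in these places, with 239 of 332.

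KO-specific sites had fewer Sox2 and Nanog summits nearby than kept sites and more Uhrf1 windows over them. A KO Sox2 summit lay within 100 bp of 53 of 332, or 16.0%, and a KO Nanog summit of 94, or 28.3%. Of all WT Oct4 sites, 46% had a KO Sox2 and 32.4% a KO Nanog summit. A WT Sox2 summit lay near 31 of the 332 and a WT Nanog summit near 91. Those shares were 24.2% and 12.9% of all WT Oct4 sites. A Uhrf1 window covered 169 of the 255 placed ones, or 66.3%, and a repeated summit sequence was found at 179. The octamer was present at 5 and the composite with at most 2 mismatches at 0 of the 255, where a limit of 3 counts allows a share of up to 1.18%. Outside crowded places 93 KO-specific sites remained, of which 35 had a KO Sox2 and 39 a KO Nanog summit. Of the 91 placed ones, 32 lay in a WT H3K27me3 domain, or 35.2%, 56 in a KO H3K9me3 domain, or 61.5%, and 29 in a Uhrf1 window, or 31.9%. The first 2 of these shares were close to those of the kept sites. These shares are given side by side and were not tested.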

How the data were processed

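ChIP-seq had been run on WT and Uhrf1 KO E14 mESC and their EBs, with 1 sample in each group. The authors mapped reads to mm9 with Bowtie2 (2.1.0), keeping 1 alignment per read, and called Oct4, Sox2 and Nanog peaks per sample with MACS. The deposited signal values are the pileup heights of these summits in reads, not scaled for depth. The deposited score values belong to histone domains found with RSEG and were used only to rank domains in an alternative. Uhrf1 regions are 10 kb windows above input. Positions were written 1-based.

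The members, gene lists and comparisons were chosen with earlier results of these data known. Summits within 100 bp were counted as shared. Shares have Wilson and differences Newcombe 95% intervals, and a difference was called where its interval excluded 0. The intervals treat sites as independent, while neighbouring or repeated sites are not, and cover counting error only. There is no replicate, so no genotype difference was tested. Genes are the protein-coding genes of GENCODE vM1 (22367 on placed chromosomes), and bases were read from NCBIM37, the mm9 assembly, whose chromosome lengths fit the lists. The 31 bases at each summit were counted in the whole assembly on both strands.

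Members named in the text were those nearest to a listed gene, the 10 with the highest KO height outside crowded places, the 5 with the highest KO to WT ratio, the 3 farthest from their KO summit with the 3 WT sites just past 100 bp, and the 10 tallest within 2 kb of a start. Of the 10 with the highest KO height, 3 are not reported here by name. The sites of the sequence sets, and Six4 among the octamer sites, were chosen after their values were seen. Computation used Python 3.11, numpy 2.4.6, pandas 2.3.3, scipy 1.17.1, numba 0.67.0 and matplotlib 3.10.9, and functions were tested on simulated data. Alternatives were other distances, chromosomes 1 to 19, no crowded places, the tallest 20%, merged neighbours and other thresholds. Added after seeing the data were no telomere arrays, unique summits and 3 mismatches.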

Additional observations from a re-analysis of the deposited data

How the results depend on the processing

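The 15 differences between kept and WT-specific sites were recomputed under 139 alternatives, and 126 of these kept the direction or stayed with an interval that includes 0. Limiting both classes to the tallest 20% of WT heights took the WT H3K4me3 difference to -1.12 points and the KO one to 3.97, the composite to -0.758 (2.09 with 3 mismatches), the Uhrf1 windows to 5.12 and the repeated summit sequence to 17.4. With domains above the median score, WT H3K4me3 differed by 5.69 points (-0.0666 to 12), WT H3K9me3 by -8.17 and KO H3K9me3 by -7.16. Without telomere arrays, WT H3K9me3 differed by -8.18 points and the repeated sequence by -14.4. Counting 10 or more places as repeated gave -7.31 points, and leaving out crowded places 7.34 points for KO H3K9me3. The causes were not tested, except that fewer sites widen an interval. The Sox2 and Nanog differences excluded 0 under every alternative run.

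The kept share was 1.89%. It was 2.23% at 500 bp and 2.38% at 1000 bp, 7.90% in the tallest 20% and 1.54% without telomere arrays, and the other alternatives stayed within its interval. No paired analysis was possible because each group held 1 library, and no replicate could be left out. The low KO heights and the 576 KO summits limit what a missing KO summit says, since a site under the calling threshold is not in the list.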
